A study of Mus musculus with 5 samples.

Results

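The 10 genes of the LIF, IL-6 and STAT3 signaling chain were read in the uterus of mice that had mated with aged or young vasectomized males. They were taken by gene symbol and comprise the ligands Lif, Il6 and Il11, the receptors Lifr, Il6ra, Il11ra1 and Il6st, the kinase Jak1, the transcription factor Stat3 and its feedback inhibitor Socs3. All 10 were among the 28666 genes of the deposited count table, and 9 of them passed the filter on low counts, which kept 17013 genes. Il11 did not pass it.

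Each library was made from uterine RNA of ICR females aged 6 to 8 weeks that were pseudopregnant after mating with vasectomized C57BL/6 males, so that they received seminal plasma (SP) but no sperm. The aged-SP group (replicates 1 and 4, n = 2) was caged with males of 12 to 18 months and the young-SP group (replicates 1, 2 and 4, n = 3) with males of 12 to 14 weeks. Uteri of both groups carried no embryo. The study's methods place the collection at 3.0 dpc, before embryo transfer, while the labels give 3.5 days after caging. The comparison asks whether the age of the male that supplied the seminal plasma goes with a different uterine transcriptome. One further young-SP uterus that the study excluded was not analysed here. The sources do not say whether a library holds 1 uterus or a pool, so the p-values measure the spread between these libraries. Because the RNA came from the whole uterus, fewer cells of a type and less RNA per cell cannot be told apart.

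LIF, IL-6 and IL-11 are cytokines that each bind a receptor chain of their own (LIFR, IL6RA and IL11RA1) and signal through a common chain, gp130, which Il6st encodes. Activated gp130 lets JAK1 phosphorylate STAT3, and STAT3 in turn switches on Socs3, whose product blocks the receptor complex. In the mouse uterus LIF is secreted by the glands and acts on the luminal epithelium to prepare it for implantation, and IL-11 acts on the stroma during decidualization, the change of stromal cells that follows implantation.

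Total counts lay between 15071914 and 16728601 per library. Levels are given as CPM, counts scaled to library size after TMM, and levels of different genes are compared as deposited FPKM, which are per gene length. A gene was called changed when edgeR's adjusted p was below 0.05 and its log2 fold change beyond 1 in either direction. By that rule 25 genes (0.147% of those tested) passed, 14 with a higher (0.0823%) and 11 with a lower level (0.0647%) after aged SP. Markers of stroma, myometrium, epithelium and endothelium were present in all libraries (at least 406 CPM summed per list). The summed CPM of 5 gland markers was 4070 and 2930 in the aged-SP libraries against 504, 48.4 and 39.3 in young-SP replicates 1, 2 and 4, and in the first 3 of these most of it was Prss28 and Prss29. The 6 estrogen-response genes summed to 9680 and 9120 CPM in the aged-SP libraries, to 8390 in young-SP replicate 1 and to 428 and 1160 in young-SP replicates 2 and 4. Single genes of that list differed. C3 alone lay above the young-SP range in both aged-SP libraries (19.5% of all tested genes), at 4940 and 3020 against 1760, 347 and 631 CPM. Clca1 and Sprr2f were highest in young-SP replicate 1, at 774 and 453 CPM. Young-SP replicate 1 thus stood apart from the rest of its group, and without it edgeR called 578 genes (3.45%). By the adjusted p alone, 26 genes (0.153%) passed with it and 4.81% of tested genes without it.

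No member was called. The count was 0 of 9 by edgeR (against 0.147%), by DESeq2's Wald test under the same rule (3.60% of its genes called) and by limma-voom, and 4 of 9 had an unadjusted p under 0.05 in edgeR, against 19.0% of all tested genes. Those were Il11ra1, lower in the aged-SP group (9.36% of all tested genes were), and Lifr, Il6ra and Stat3, higher in it (9.62%). With DESeq2's adjusted p alone, without the fold threshold, 3 members passed, against 7.58% of all genes. Lifr and Il6ra were higher (3.69% of all genes) and Il11ra1 lower (3.89%). The 2 groups did not overlap in 5 of 9 tested members, against 38.8% of all tested genes, with 3 above (19.5%) and 2 below (19.3%). The median log2 fold change was 0.47 over the 9 members and 0.01 over all tested genes, and without aged-SP replicate 1 the members' median was -0.08.

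**Figure D1:**
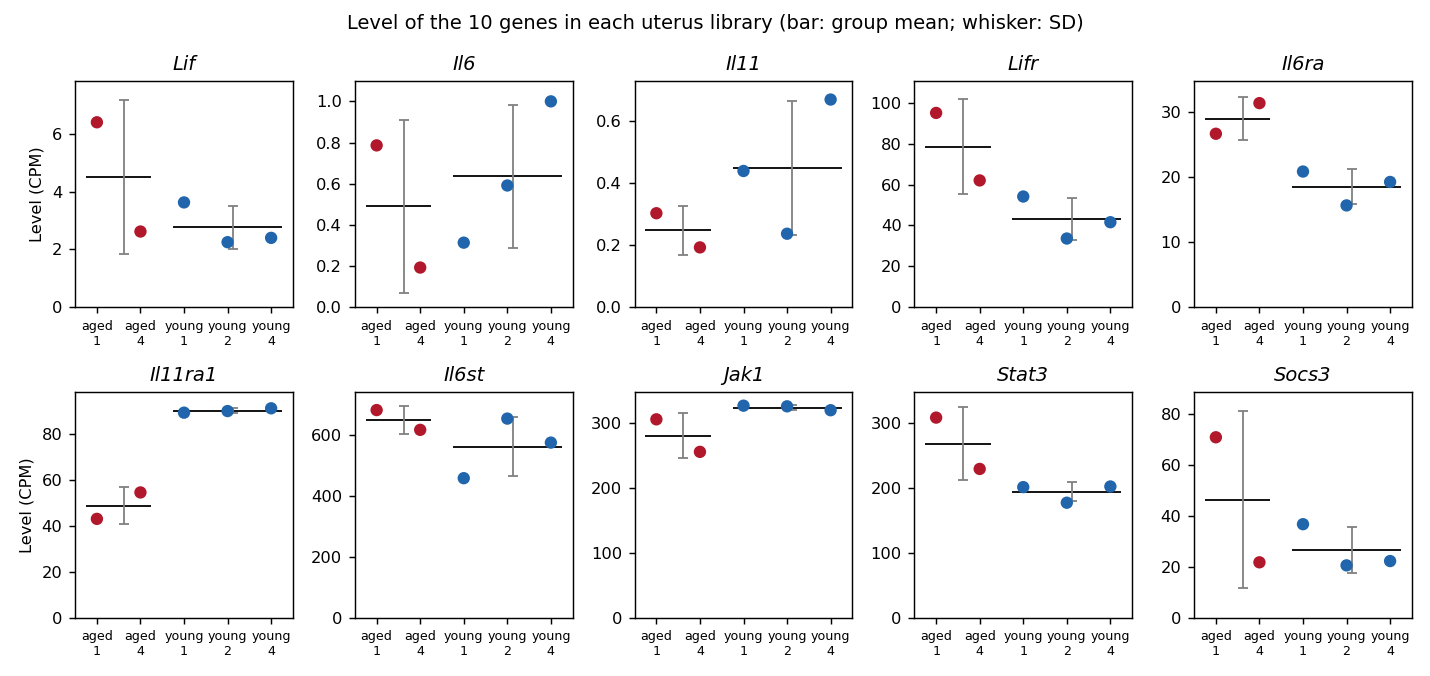
Level of each of the 10 genes (CPM, vertical axes from 0) in the 5 libraries, with red points for the aged-SP and blue points for the young-SP group, a bar at each group mean and a whisker of 1 SD. Il11ra1 lay at 43.0 and 54.5 CPM in the aged-SP libraries and between 89.2 and 91.1 CPM in the young-SP libraries, while Lif and Socs3 were high in aged-SP replicate 1 alone.

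Il11ra1, which encodes the IL-11-binding receptor chain (GRCm38 chr4:41699989-41769474, plus strand), had the smallest p among the members. It measured 43.0 and 54.5 CPM in aged-SP replicates 1 and 4 and 89.2, 89.9 and 91.1 CPM in young-SP replicates 1, 2 and 4. Both aged-SP libraries lay below all young-SP libraries, and the young-SP libraries differed among themselves by a coefficient of variation of 1.09%. At their 1426, 1520 and 1365 counts, counting alone would spread libraries more than that. This closeness is therefore no measure of how little uteri vary. The group means were 48.7 ± 8.14 CPM (SD, n = 2) with aged and 90.1 ± 0.979 CPM (SD, n = 3) with young SP, so the level was 1.85-fold higher in the young-SP group. The log2 fold change of -0.89 ± 0.13 (SE; 95% interval -1.20 to -0.57) did not pass the adjustment over all genes in edgeR's quasi-likelihood test (Benjamini-Hochberg adjusted p = 0.0734) and ranked 127 of 17013 by p. DESeq2's Wald test gave an adjusted p of 2.3e-06 for the same difference, which stayed under the fold threshold of 1. Without young-SP replicate 1, edgeR's log2 fold change was -0.91 and its adjusted p 0.0366 (4.81% of tested genes passed 0.05 in that fit), and over 13 alternative settings the log2 fold change ranged from -1.07 to -0.73 with adjusted p between 2.3e-06 and 0.24.

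The counts of Il11ra1 carry a limit of sequence. The mouse genome holds near-identical copies of the gene, and of all stretches of 50 bases in its longest coding transcript, 46.5% also occur in Gm13305 or Il11ra2. The coding sequences of Il11ra1 and of one Il11ra2 copy, each 1299 bases long in GENCODE M21 on GRCm38 and both on chromosome 4, differ at 13 bases (99.0% identity, no gaps). The stretch from coding base 955 to 1034, counted from the first base of the start codon, holds the most differences of any stretch of that length. It is shown because reads without such a base match both genes equally, and capitals mark the bases that differ.
Il11ra1: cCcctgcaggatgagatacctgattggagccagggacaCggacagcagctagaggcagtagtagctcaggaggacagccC
Il11ra2: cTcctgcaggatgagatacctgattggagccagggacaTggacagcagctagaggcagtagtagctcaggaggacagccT
The 2 Il11ra2 copies in the table stood at 0.907 to 1.56 CPM and at 0.846 to 1.40 CPM over the 5 libraries, far below Il11ra1. The log2 fold changes of the 2 Il11ra2 copies were -0.22 (95% interval -1.16 to 0.72) and -0.42 (-1.22 to 0.37). How reads that match several genes were counted is not given in the sources used here, so the split between Il11ra1 and its copies is uncertain.

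Lifr, the LIF-binding chain (chr15:7090614-7197489, plus strand), went the other way. Its level was 95.2 and 62.1 CPM in aged-SP replicates 1 and 4 and 54.2, 33.6 and 41.6 CPM in young-SP replicates 1, 2 and 4. Both aged-SP libraries lay above every young-SP library, by a narrow margin between aged-SP replicate 4 and young-SP replicate 1. Means were 78.7 ± 23.4 CPM (SD, n = 2) with aged and 43.2 ± 10.4 CPM (SD, n = 3) with young SP, a ratio of 1.82. On the log2 scale this was 0.87 ± 0.26 (SE; 95% interval 0.21 to 1.52), and the adjusted p was 0.178 in edgeR's quasi-likelihood test and 0.0439 in DESeq2's Wald test. It was 0.52 without aged-SP replicate 1 and 1.05 without young-SP replicate 1 (edgeR adjusted p = 0.526 and 0.0829).

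Il6ra, which encodes the IL-6-binding chain (chr3:89864059-89913196, minus strand), stood at 26.6 and 31.3 CPM in aged-SP replicates 1 and 4 and at 20.8, 15.6 and 19.2 CPM in young-SP replicates 1, 2 and 4. The groups did not overlap, and here aged-SP replicate 4 was the highest library. The aged-SP mean of 28.9 ± 3.31 CPM (SD, n = 2) was 1.56-fold the young-SP mean of 18.5 ± 2.65 CPM (SD, n = 3). Its log2 fold change was 0.64 ± 0.17 (SE; 95% interval 0.22 to 1.06), with adjusted p = 0.145 in edgeR and 0.0413 in DESeq2, and it stayed between 0.52 and 0.75 under 13 alternatives. The gene Gm42809 overlaps 242 exon bases (2.80%) of Il6ra, and reads from that stretch may come from either gene.

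Il6st, the gene of the shared chain gp130 (chr13:112464070-112510086, plus strand), was the most abundant member per gene length. Its level was 683 and 618 CPM in aged-SP replicates 1 and 4 and 459, 655 and 576 CPM in young-SP replicates 1, 2 and 4. The groups overlapped, with young-SP replicate 1 the lowest library. Its log2 fold change was 0.21 ± 0.17 (SE) and the edgeR adjusted p 0.538, with a 95% interval from -0.21 to 0.62 that spans both directions. Without young-SP replicate 1 it was 0.07.

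Within a library, the ratio of 2 receptor chains does not depend on library scaling. The ratio of Lifr to Il11ra1 in FPKM was 0.919 and 0.473 in aged-SP replicates 1 and 4 and 0.252, 0.155 and 0.189 in young-SP replicates 1, 2 and 4. The mean was 0.696 ± 0.316 (SD, n = 2) against 0.199 ± 0.0492 (SD, n = 3), and the groups did not overlap. Il11ra1 thus exceeded Lifr in every library, on average by 1.60-fold in the aged-SP and 5.23-fold in the young-SP group. This ratio was formed after the values of both genes were known, so it is a description without a test. Relative to Il6st, Il11ra1 stood at 0.156 and 0.219 in the aged-SP libraries and at 0.482, 0.341 and 0.393 in the young-SP libraries.

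**Figure D2:**
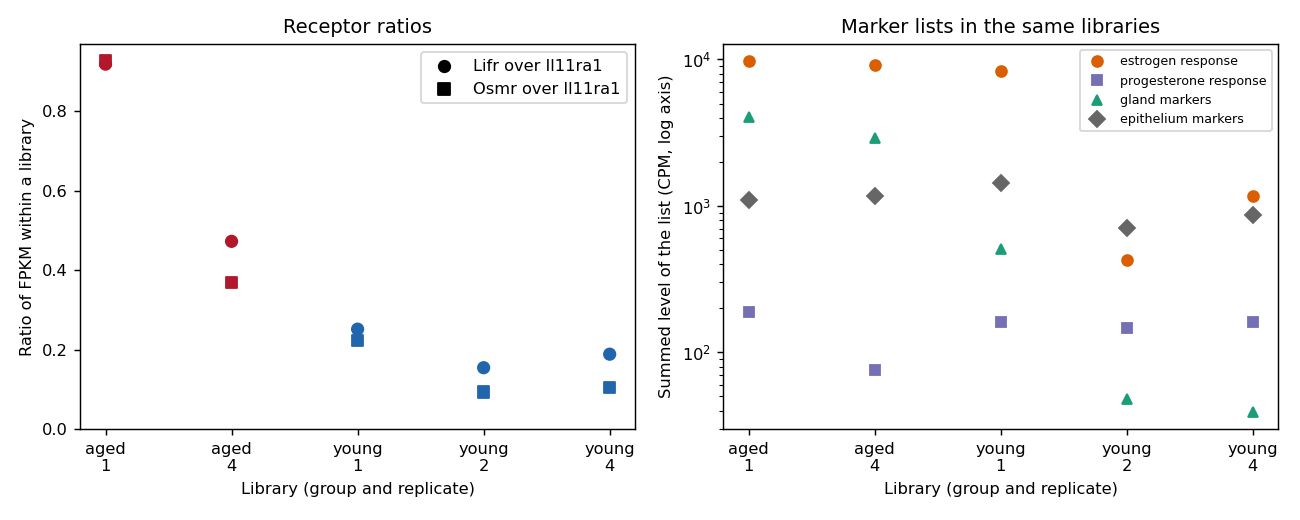
Left, ratio of FPKM within each library for Lifr over Il11ra1 (circles) and Osmr over Il11ra1 (squares), red for aged-SP and blue for young-SP. Right, summed level (CPM, log axis) of 4 marker lists in the same libraries, where young-SP replicate 1 sits with the aged-SP libraries for the estrogen-response genes (8390 CPM) and between the groups for the gland markers (504 CPM), while its receptor ratios stay below both aged-SP libraries.

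Some marker lists also differed between these libraries. The gland sum and Lifr were both highest in aged-SP replicate 1, then in aged-SP replicate 4, then in young-SP replicate 1. The order differed in young-SP replicates 2 and 4, at 48.4 and 39.3 CPM for the gland sum and 33.6 and 41.6 CPM for Lifr. The gland sum ran from 39.3 to 4070 CPM and Lifr from 33.6 to 95.2 CPM. Of the 5 gland genes 3 lay above and 1 below the young-SP range in both aged-SP libraries, against 19.5% and 19.3% of all tested genes. The 1 below was Cxcl15, at 2.90 and 1.92 CPM against 8.69, 20.2 and 8.14 CPM (log2 fold change -2.35 ± 0.53, SE). EdgeR called 0 of the 5 and DESeq2 1, Cxcl15 (3.60% of its genes). Prss28 and Prss29 had log2 fold changes of 5.18 ± 2.19 and 4.11 ± 1.87 (SE; edgeR adjusted p = 0.283 and 0.312). DESeq2 gave no p for either. None of the 5 was at 0 in any library. The summed stromal markers overlapped, at 3400 and 4230 CPM in the aged-SP libraries and 3500, 4450 and 5040 CPM in young-SP replicates 1, 2 and 4, with Dcn the largest share. Of the 6 stromal genes, 5 had a negative log2 fold change. Pdgfra, Hoxa11 and Hand2 lay below the young-SP range in both aged-SP libraries with an unadjusted p under 0.05 in edgeR. Over all tested genes 19.3% lay below that range and 9.36% were lower with such a p. Pdgfra, a receptor of stromal fibroblasts, averaged 346 ± 1.66 CPM (SD, n = 2) with aged and 543 ± 83.0 CPM (SD, n = 3) with young SP (adjusted p = 0.12 in edgeR and 0.00476 in DESeq2). The 5 T and NK cell markers summed to 22.0 and 12.9 CPM in the aged-SP libraries and to 32.3, 27.8 and 36.4 CPM in young-SP replicates 1, 2 and 4, without overlap. All 5 had a negative log2 fold change, as did 8350 of the 17013 tested genes. Cd3g and Ncr1 had an unadjusted p under 0.05 in edgeR (9.36% of all tested genes were lower with such a p). EdgeR called 0 of the 5 and DESeq2 1, Cd3g (3.60% of its genes). The sums of 5 macrophage markers (318 to 610 CPM) and 6 neutrophil markers (29.4 to 250 CPM) overlapped. All 6 progesterone-response genes had an unadjusted p under 0.05 in edgeR, against 19.0% of all tested genes. Hand2, Areg, Ihh, Calca and Il13ra2 were lower in both aged-SP libraries. Cyp26a1 was high in aged-SP replicate 1 only, at 104 CPM. It was at 2.30 CPM in aged-SP replicate 4 and at 2.88, 2.36 and 3.40 CPM in young-SP replicates 1, 2 and 4, so the groups overlapped. Of the 6, edgeR called 0 and DESeq2 4 (3.60% of its genes). The 4 receptor genes stood as follows in young-SP replicate 1, where the estrogen-response sum was 8390 CPM, against young-SP replicates 2 and 4. Il11ra1 was at 89.2 against 89.9 and 91.1 CPM, and Lifr at 54.2 against 33.6 and 41.6 CPM. Il6ra was at 20.8 against 15.6 and 19.2 CPM, and Il6st at 459 against 655 and 576 CPM. The part of these lists in the levels of Il11ra1, Lifr, Il6ra and the other genes described here was not tested.

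Of 4 other genes for gp130-type receptors (5 listed entries, all tested), 0 were called by edgeR, DESeq2 or limma-voom. In edgeR 1 entry, Osmr, had an unadjusted p under 0.05, against 19.0% of all tested genes. Osmr, the oncostatin M receptor chain, measured 108 and 54.6 CPM in aged-SP replicates 1 and 4 and 54.2, 22.8 and 26.0 CPM in young-SP replicates 1, 2 and 4. Aged-SP replicate 4 and young-SP replicate 1 were nearly level, as in Lifr where that margin was also small. For Osmr the log2 fold change was 1.24 ± 0.46 (SE), with adjusted p = 0.24 in edgeR and 0.0664 in DESeq2. The fold change on this scale became 0.67 when aged-SP replicate 1 was left out and 1.73 when young-SP replicate 1 was. The ratio of Osmr to Il11ra1 in FPKM was 0.928 and 0.37 in aged-SP replicates 1 and 4 and ran from 0.0937 to 0.224 with young SP.

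The ligands were low. Lif (chr11:4257557-4272514, plus strand) had 106 and 41 counts in aged-SP replicates 1 and 4 and 58, 38 and 36 counts in young-SP replicates 1, 2 and 4. In CPM these were 6.41 and 2.62 against 3.63, 2.25 and 2.40. Only aged-SP replicate 1 was high, while aged-SP replicate 4 lay inside the young-SP range. Mean levels of 4.52 ± 2.68 CPM (SD, n = 2) with aged and 2.76 ± 0.756 CPM (SD, n = 3) with young SP gave a log2 fold change of 0.71 ± 0.45 (SE; 95% interval -0.42 to 1.84; edgeR adjusted p = 0.442). Without aged-SP replicate 1 it was -0.08, so the direction for Lif rested on that library.

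Il6 (chr5:30013114-30019981, plus strand), which encodes the inflammatory cytokine, was counted 13 and 3 times in aged-SP replicates 1 and 4 and 5, 10 and 15 times in young-SP replicates 1, 2 and 4. The groups overlapped, and the highest library was young-SP replicate 4. Its log2 fold change of -0.35 ± 0.78 (SE; edgeR adjusted p = 0.838) had an interval from -2.29 to 1.58 and was 0.31 without aged-SP replicate 4. Il11 (chr7:4772373-4782857, minus strand) was counted 5 and 3 times in aged-SP replicates 1 and 4 and 7, 4 and 10 times in young-SP replicates 1, 2 and 4, and was not tested. These low counts leave the interval of Il6 wide. The low Il11 level stood beside an Il11ra1 level of 43.0 to 91.1 CPM in the same libraries.

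Among 7 other gp130 ligands, 5 passed the filter, with a median log2 fold change of 0.05. Of these, 0 were called by edgeR or limma-voom and 1 by DESeq2 (3.60% of its genes). An unadjusted p under 0.05 in edgeR was found for 2 of the 5, against 19.0% of all tested genes. Ctf1, which encodes cardiotrophin-1, measured 4.11 and 5.05 CPM in aged-SP replicates 1 and 4 and 7.32, 10.9 and 13.6 CPM in young-SP replicates 1, 2 and 4. Both aged-SP libraries lay below all young-SP libraries. Its log2 fold change was -1.21 ± 0.32 (SE), with adjusted p = 0.145 in edgeR and 0.017 in DESeq2, which called it. Without young-SP replicate 1 edgeR called it too (log2 fold change -1.43, adjusted p = 0.0413). Osm, which encodes oncostatin M, was above the young-SP range in both aged-SP libraries but at 1.69 and 1.09 CPM against 0.625, 0.236 and 0.734 CPM (log2 fold change 1.39 ± 0.54, SE; adjusted p = 0.251 in edgeR and 0.347 in DESeq2). The remaining tested ligands, Ctf2, Clcf1 and Ebi3, had unadjusted p over 0.05 in edgeR and overlapping groups.

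**Figure D3:**
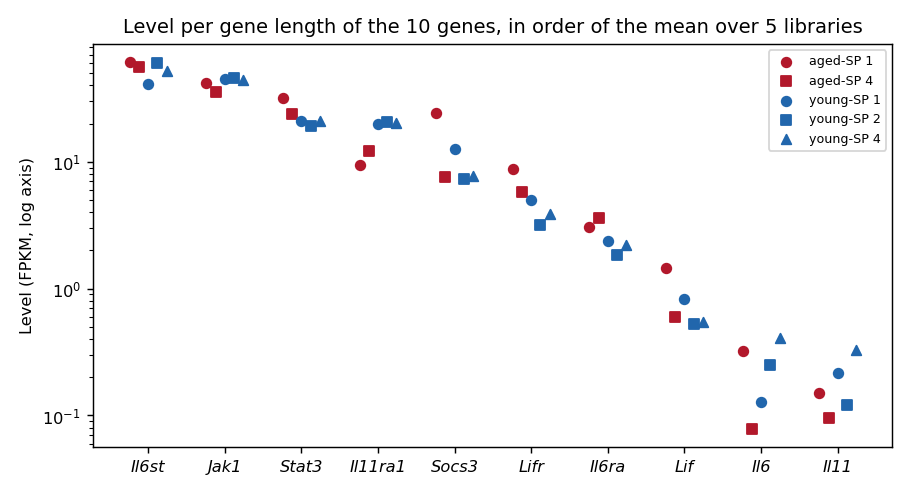
Level per gene length (FPKM, log axis) of the 10 genes, ordered by the mean over 5 libraries. Red marks the aged-SP and blue the young-SP libraries, and the symbol gives the library. The levels fall from Il6st (41.1 to 60.8 FPKM) to Il11 (0.0951 to 0.33 FPKM), with the signaling genes above the ligands.

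Per gene length, the order of mean levels over the 5 libraries was Il6st (53.8 ± 8.08 FPKM, SD, n = 5), Jak1 (42.3 ± 4.24), Stat3 (23.4 ± 5.09), Il11ra1 (16.4 ± 5.22), Socs3 (11.9 ± 7.28), Lifr (5.30 ± 2.16), Il6ra (2.62 ± 0.704), Lif (0.792 ± 0.39), Il6 (0.237 ± 0.136) and Il11 (0.182 ± 0.0942), all in FPKM. Neighbours in that order overlapped in range except Jak1 with Stat3, Il6ra with Lif, and Lif with Il6. The shared chain and JAK1 were at the 94.8th and 93.1st percentile of all tested genes by mean FPKM, Lifr near the middle at the 50.6th, and Lif at the 15.6th. The ligands were thus far less abundant than the chain that transmits their signal in all 5 libraries. The order between Il11ra1 and Lifr was the same in every library.

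Jak1, the kinase bound to gp130 (chr4:101152367-101265282, minus strand), measured 305 and 255 CPM in aged-SP replicates 1 and 4 and 326, 325 and 319 CPM in young-SP replicates 1, 2 and 4. The young-SP libraries lay close together (coefficient of variation 1.18%) and both aged-SP libraries below them. At 5209, 5496 and 4776 counts, counting alone would give a spread of about that size. The difference on the log2 scale was -0.21 ± 0.11 (SE; 95% interval -0.48 to 0.06; edgeR adjusted p = 0.362), and it remained negative under all 13 alternatives (-0.34 to -0.09).

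Stat3, the transcription factor at the end of the chain (chr11:100885098-100939540, minus strand), stood at 308 and 229 CPM in aged-SP replicates 1 and 4 and at 201, 177 and 202 CPM in young-SP replicates 1, 2 and 4. Both aged-SP libraries lay above the young-SP range. Means of 268 ± 55.9 CPM (SD, n = 2) with aged and 194 ± 14.4 CPM (SD, n = 3) with young SP gave a log2 fold change of 0.47 ± 0.15 (SE; 95% interval 0.09 to 0.85), which did not pass the adjustment in edgeR (adjusted p = 0.20) or in DESeq2 (adjusted p = 0.116). Without aged-SP replicate 1 it was 0.24. Exons of Stat3 and Stat5a overlap by 72 bases (0.756% of the exon bases of Stat3).

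The other 9 JAK and STAT genes were all tested, with a median log2 fold change of 0.21 and 0 called by edgeR, DESeq2 or limma-voom. In edgeR 2 of the 9 had an unadjusted p under 0.05, against 19.0% of all tested genes. Stat6, which acts downstream of IL-4, measured 107 and 109 CPM in the aged-SP libraries and 93.1, 84.7 and 90.3 CPM in young-SP replicates 1, 2 and 4 (log2 fold change 0.27 ± 0.09, SE; edgeR adjusted p = 0.194). Stat4, which acts downstream of IL-12, stood at 1.09 and 0.704 CPM in the aged-SP libraries and at 1.63 CPM or more in each young-SP library and had a log2 fold change of -1.01 ± 0.34 (SE; edgeR adjusted p = 0.21). The T and NK cell markers lay lower in the same libraries, and their part in this was not tested. Jak2, the other abundant kinase of the family, had 261 and 242 CPM in the aged-SP libraries and 332, 303 and 275 CPM in the young-SP libraries, and was named after its values were seen.

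Socs3, the inhibitor that STAT3 induces (chr11:117966079-117970047, minus strand), measured 71.0 and 21.8 CPM in aged-SP replicates 1 and 4 and 36.8, 20.6 and 22.3 CPM in young-SP replicates 1, 2 and 4. One library, aged-SP replicate 1, was high, and young-SP replicate 1 was the next. Aged-SP replicate 4 lay inside the young-SP range, so the groups overlapped. Means of 46.4 ± 34.8 CPM (SD, n = 2) with aged and 26.6 ± 8.92 CPM (SD, n = 3) with young SP gave a log2 fold change of 0.80 ± 0.52 (SE; 95% interval -0.50 to 2.11; edgeR adjusted p = 0.45). Without aged-SP replicate 1 it was -0.29.

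Among the members' promoters, Socs3 alone held a match to the STAT consensus TTCNNNGAA, which reads the same on both strands. Sequences of 250 bases before to 50 after the start (RefSeq, GRCm38.p6) matched all 10 members by symbol, and 1 of their 13 promoters (7.69%) held the motif, against 2726 of 32851 promoters of all genes (8.30%). The stretch below runs on the minus strand of chr11:117969452-117969616, from 250 to 86 bases before the RefSeq start. GENCODE M21 also has a longer Socs3 transcript that starts farther upstream, at the gene end given above, so the stretch lies within the annotated gene, in none of its exons. It is shown because it carries the match, 9 bases in capitals that begin 154 bases before the RefSeq start.
Socs3: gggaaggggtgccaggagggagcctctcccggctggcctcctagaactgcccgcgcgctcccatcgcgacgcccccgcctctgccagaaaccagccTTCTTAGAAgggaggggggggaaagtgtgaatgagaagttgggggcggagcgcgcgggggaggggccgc
A match in these letters is not a measurement of STAT3 binding, and the frequency in the members was close to that of all promoters.

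The other 15 feedback genes were all tested, with a median log2 fold change of 0.03 and 0 called by edgeR, DESeq2 or limma-voom. Unadjusted p was under 0.05 in edgeR for 4 of them, all higher in the aged-SP group. Over all tested genes this held for 19.0% in either direction and for 9.62% higher. Socs2, an inhibitor of growth hormone and STAT5 signaling, measured 113 and 71.7 CPM in aged-SP replicates 1 and 4 and 54.9, 55.3 and 46.1 CPM in young-SP replicates 1, 2 and 4, with no overlap (log2 fold change 0.83 ± 0.21, SE; adjusted p = 0.139 in edgeR and 0.0158 in DESeq2). Cish, another inhibitor of STAT5 signaling, had 16.4 and 10.1 CPM in the aged-SP libraries and 9.07, 5.56 and 6.14 CPM in the young-SP libraries (log2 fold change 0.94 ± 0.31, SE; edgeR adjusted p = 0.21). Ptpn1, a tyrosine phosphatase that acts on JAK kinases, and Socs6 differed by log2 fold changes of 0.32 and 0.25 (edgeR adjusted p = 0.20 and 0.248). In both aged-SP libraries 5 of the 15 lay above the young-SP range and 2 below, against 19.5% and 19.3% of all tested genes. The 5 were Socs2, Cish, Socs6, Ptpn1 and Pias4, the last named after its values were seen. The size of the differences in Socs2 and Cish depended on aged-SP replicate 1, and leaving it out gave log2 fold changes of 0.46 (Socs2) and 0.54 (Cish).

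**Figure D4:**
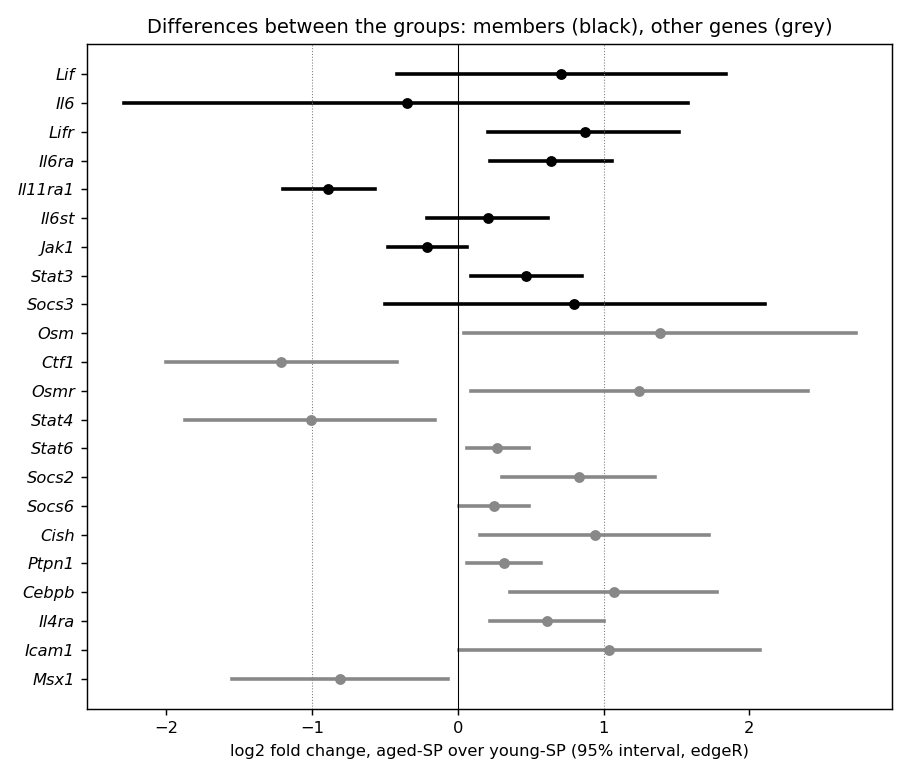
Log2 fold change (aged-SP over young-SP) with its 95% interval from edgeR for the 9 tested members (black) and for the 13 other pathway genes with an unadjusted p under 0.05 (grey), dotted lines marking a log2 fold change of 1 in either direction. Il11ra1 (-0.89) has the narrowest interval of the members away from 0, and no gene shown passed the adjustment over all genes in edgeR.

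The 21 STAT3 target genes, a list of genes that STAT3 is known to induce in various cells, were all tested. Of these, 17 had a positive and 4 a negative log2 fold change, against 8663 and 8350 of the 17013 tested genes. The median was 0.59. In edgeR 3 had an unadjusted p under 0.05, against 19.0% of all tested genes. EdgeR and limma-voom called 0 and DESeq2 1 (3.60% of its genes). The positive median rested on one library. In 18 of 21 targets the highest of the 5 libraries was aged-SP replicate 1, against 22.8% of all tested genes, while aged-SP replicate 4 was the highest in 0. Among the 9 tested members, aged-SP replicate 1 was the highest in 5. Without aged-SP replicate 1 the targets' median was -0.06, with 10 of 21 positive, and without aged-SP replicate 4 it was 1.02. This split by library was looked for after the values had been seen.

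Cebpb, a transcription factor of the acute-phase response, was the one target called by DESeq2. It measured 18.9 and 11.9 CPM in aged-SP replicates 1 and 4 and 9.01, 5.79 and 7.21 CPM in young-SP replicates 1, 2 and 4 (log2 fold change 1.07 ± 0.29, SE; adjusted p = 0.149 in edgeR and 0.0275 in DESeq2), and its log2 fold change was 0.70 without aged-SP replicate 1. Il4ra, the IL-4 receptor chain, was also higher in both aged-SP libraries, at 121 and 115 CPM against 92.9, 70.9 and 68.4 CPM (log2 fold change 0.61 ± 0.15, SE; adjusted p = 0.141 in edgeR and 0.024 in DESeq2). Icam1, an adhesion molecule, was high in aged-SP replicate 1 only, at 62.7 CPM against 23.8 CPM in aged-SP replicate 4 and 17.4 to 25.3 CPM in the young-SP libraries. Its log2 fold change was 1.04 ± 0.41 (SE; edgeR adjusted p = 0.261) and 0.17 without aged-SP replicate 1. Bcl3, named after its values were seen, had the same shape as Socs3, with 34.5 CPM in aged-SP replicate 1 and 7.27 to 12.3 CPM in the other 4 libraries.

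Lcn2, which encodes the secreted protein lipocalin-2 and is also on the estrogen-response list, was named after its values were seen. It stood at 1670 and 1090 CPM in the aged-SP libraries, at 1630 CPM in young-SP replicate 1 and at 2.31 and 4.01 CPM in young-SP replicates 2 and 4. The groups overlapped, and its log2 fold change was 1.33 ± 2.35 (SE; edgeR adjusted p = 0.794) with and 8.76 (0.00744) without young-SP replicate 1. The motif TTCNNNGAA was found in 2 of 22 promoters of the targets with a RefSeq sequence (18 of 21 genes), those of Icam1 and Steap4, a share of 9.09%.

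**Figure D5:**
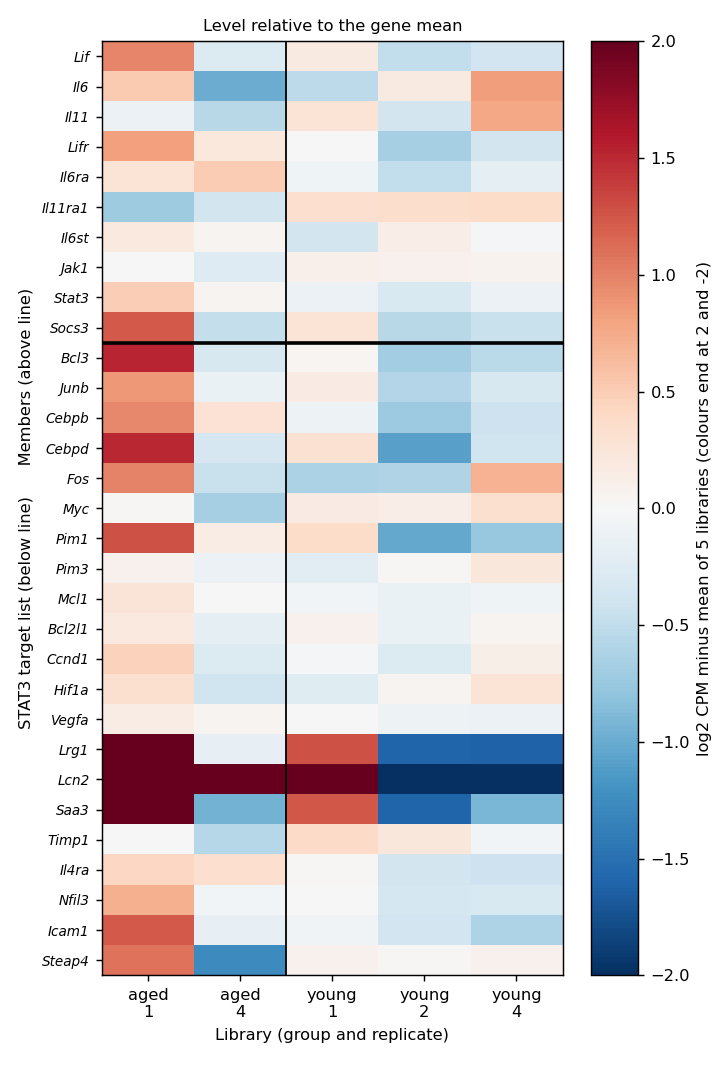
Log2 CPM of each gene minus its mean over the 5 libraries (colour, ending at 2 and -2) for the 10 members above the thick line and the 21 STAT3 targets below it, with a thin line between the groups. The column of aged-SP replicate 1 is above the gene mean for most targets, and 18 of the 21 are highest there.

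The pattern of Lif and of Socs3 over the 5 libraries was compared with every tested gene of at least 5 CPM on average, as the root mean square difference of log2 CPM after centring each gene. The genes nearest to Lif were Pdia6 (0.062), a chaperone of the endoplasmic reticulum, Sbno2 (0.068) and Lbp (0.079), an acute-phase protein that binds lipopolysaccharide, among 12529 genes, all with their highest level in aged-SP replicate 1 and their next highest in young-SP replicate 1. Pdia6, for example, measured 708 and 277 CPM in aged-SP replicates 1 and 4 and 397, 253 and 244 CPM in young-SP replicates 1, 2 and 4. Nearest to Socs3 were Slc2a1 (0.075), a glucose transporter, Pdia6 (0.13) and Tnfaip3 (0.14), an inhibitor of NF-kB signaling, and the distance between Lif and Socs3 was 0.15. With 5 libraries such likeness rests mostly on the level in aged-SP replicate 1.

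Of 6 genes tied to LIF action in the uterus, all tested, 0 were called by edgeR, DESeq2 or limma-voom. In both aged-SP libraries 2 of them lay above and 1 below the young-SP range, against 19.5% and 19.3% of all tested genes. Msx1, a transcription factor of the uterine epithelium whose level declines at implantation, alone had an unadjusted p under 0.05 in edgeR (19.0% of all tested genes). It measured 71.4 and 141 CPM in aged-SP replicates 1 and 4 and 164, 201 and 193 CPM in young-SP replicates 1, 2 and 4, so both aged-SP libraries lay below the young-SP range. This was a log2 fold change of -0.81 ± 0.30 (SE; adjusted p = 0.237 in edgeR and 0.0722 in DESeq2), and it was -0.40 without aged-SP replicate 1 and -1.38 without aged-SP replicate 4. Foxa2, a transcription factor of the glands needed for Lif expression there, ranged from 8.51 to 14.1 CPM with overlapping groups, a log2 fold change of -0.02 (95% interval -0.64 to 0.60), and was named after its values were seen. Foxa2 thus overlapped between the groups, while the gland sum did not. Ptgs2 and Hbegf, the 2 above the young-SP range, were also named after their values were seen. Ptgs2 was at 29.1 and 20.5 CPM against 16.9, 2.78 and 4.67 CPM (log2 fold change 1.61 ± 0.74, SE; edgeR adjusted p = 0.314). Without young-SP replicate 1 it was 2.73. Hbegf had a log2 fold change of 0.40 ± 0.21 (SE; edgeR adjusted p = 0.366). Igfbp3 (1.17) and Coch (-0.18) overlapped between the groups.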

How the data were processed

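The members and all gene lists were chosen with earlier results of these data known. Uterine RNA was sequenced on an Illumina HiSeq from NEBNext Ultra libraries (3 ug of total RNA). The strand setting is not given in the sources used here. The authors filtered and aligned the reads with HISAT2 2.1.0 and deposited raw counts per gene, with HTSeq 0.6.0 and Bowtie2 2.2.3 also in the submitters' processing notes. The genome build is not given in the sources used here, but the positions in the table of 9 of 10 members equal those of GENCODE M21 (GRCm38), Il11 being the exception. The FPKM values were deposited by the authors per library. The table's columns from the authors' DESeq2 comparison, namely the mean signal, the fold ratio, the log2 fold change and the p-value per gene made by the authors, were not used. All 5 libraries could be matched to a group by their titles, and 0 columns of values per library were left unused.

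Counts were kept with filterByExpr, scaled with TMM factors (0.990 to 1.02) and compared with glmQLFit and glmQLFTest in edgeR 4.0.16 under R 4.3.3, with Benjamini-Hochberg adjustment over 17013 genes and no covariate. The biological coefficient of variation was 25.1%. Alternatives were DESeq2 1.42.0, limma-voom (limma 3.58.1), other size factors, other filters, the adjusted p alone, a replicate block, leaving out each library and, added after seeing the data, robust edgeR. All 10 members were named with the value in every library. Of the other pathway lists, genes with an unadjusted p under 0.05 were named, with 1 result not reported here, and exceptions are stated. Marker lists were described by their sums and counts, and their single genes were named after their values were seen. For Lif and Socs3 the 3 nearest genes were named. Scripts were tested on simulated data. Tables were handled with Python 3.11.15, numpy 2.4.6 and pandas 2.3.3, and plots drawn with matplotlib 3.10.9.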

Additional observations from a re-analysis of the deposited data

How the results depend on the processing

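Of 286 fold changes of the members and the other named genes under the alternatives, 280 kept their direction and side of the threshold. The log2 fold change of 3 members reversed, that of Lif to -0.08 and of Socs3 to -0.29 without aged-SP replicate 1 and that of Il6 to 0.31 without aged-SP replicate 4. With one library left out in turn, Lif ranged from -0.08 to 1.21, Socs3 from -0.29 to 1.42 and Il6 from -1.68 to 0.31. The number of members called was 0 under all 14 alternatives. The 25 called genes became 632 with DESeq2's Wald test, 203 with no filter on low counts and 2 with the replicate block, and leaving out one library gave 1 to 578. These were 1 and 49 without aged-SP replicate 1 or 4, and 578, 3 and 2 without young-SP replicate 1, 2 or 4. The cause of these differences was not tested. Of the other pathway genes, 0 were called by edgeR, 2 by DESeq2 (Ctf1 and Cebpb), and 0 to 4 when one library was left out. The 4 were Ctf1, Stat2, Lcn2 and Ptgs2 without young-SP replicate 1. Over all genes DESeq2 called 3.60%, and edgeR without young-SP replicate 1 called 3.45%. The groups share the replicate numbers 1 and 4, and deviations from the group means correlated by 0.152 for number 1 and 0.136 for number 4. With 2 aged-SP libraries these deviations are mirror images. Aged-SP replicate 4 with young-SP replicate 1 thus gave -0.152, and aged-SP replicate 1 with young-SP replicate 4 gave -0.136. The correlations are therefore not separate readings and cannot decide whether the numbers mark pairs. No source ties a number to a shared batch or day, so the numbers were taken as names. With the block 0 members and 0 other pathway genes were called. In that fit young-SP replicate 2 has no partner and little is left to estimate the spread. Its count of 0 therefore says little about these genes. A fit without 1 aged-SP library assumes that the remaining one varies like the young-SP group. Under the 3 scalings the median over all genes lay between -0.006 and 0.007 (log2). Il11, at 3 to 10 counts per library, and Il6, at 3 to 15, rest on few counts.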
